A study of Mus musculus with 16 samples.

Results

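In MPP3 cells of mouse bone marrow, 1495 genomic regions held a Spi1 peak in every one of 10 CUT&Tag libraries, and 752 of these regions (50.3%) also overlapped a Bcl11a region. The 752 regions are described here. They were chosen by merging the peaks of the 10 Spi1 lists on chromosomes 1 to 19, X and Y wherever peaks shared at least 1 bp, which gave 31443 merged regions. The 1495 present in all 10 lists are called constant. The 6 Bcl11a lists were merged in the same way, 6353 of 12788 merged Bcl11a regions had a peak in at least 2 lists, and a constant Spi1 region sharing at least 1 bp with one of these is called Bcl11a-bound. The other 743 constant regions served for comparison.

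CUT&Tag uses an antibody to bring a transposase to a chromatin protein, so that DNA near the protein is cut and tagged for sequencing. The Spi1 libraries came from WT-iMOS cells labelled T1 (n = 3) and T2 (n = 3) and from KO-iMOS cells labelled T1 (n = 2) and T2 (n = 2). The Bcl11a libraries came from WT-iMOS cells only, labelled T1 (n = 3) and T2 (n = 3). All 16 titles carry 3m, and the design text states that MPP3 cells were sorted from WT-iMOS and KO-iMOS mice to study Bcl11a. The meaning of iMOS, T1, T2 and 3m is not given in the labels, nor which allele the KO carries or whether replicates are separate animals, so p-values measure the spread between these libraries, which may be technical. Bcl11a was not profiled in KO-iMOS cells in the lists used here. Peak lists hold no expression values, so the MPP3 label could not be checked against marker genes.

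Spi1, also called PU.1, is an ETS-family transcription factor that recognises a purine-rich motif around the core GGAA and is required for myeloid and B-lymphoid development. Bcl11a is a zinc-finger protein that represses transcription; in red cell precursors it binds the motif TGACCA and shuts off fetal globin genes, and it also acts in lymphoid and stem cells. MPP3 cells are multipotent progenitors biased towards the myeloid lineages. In bulk libraries such as these, fewer cells with a bound region and weaker binding per cell cannot be told apart.

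The sequences below are examples of DNA under Bcl11a-bound regions that sat at gene start sites. They were picked by motif, and the shares given first tell how common each motif was. Without a genome of the build, sequence could be read only from RefSeq promoter windows (250 bases before to 50 bases after each start site, GRCm38.p6, the assembly behind mm10). A window within a constant region was available for 213 Bcl11a-bound and 118 other constant regions, with 1 window taken per region. In the Bcl11a-bound set, 162 of 213 windows (76.1%) contained the GC box GGGCGG on either strand, against 50% of the other constant windows and 46.2% of 21263 windows of all protein-coding promoters. The Spi1 motif GAGGAAGT, again on either strand, was in 23 of the 213 windows (10.8%), in 22% of the other constant windows and in 3.13% of all promoters. Within the Bcl11a-bound set, the Spi1 motif was in 17.4% of windows whose region had Bcl11a in 2 or 3 lists and in 2.17% of windows with Bcl11a in 4 to 6 lists. Both Bcl11a-bound subsets held the GC box at similar shares, 75.2% and 77.2%.

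The 150-base stretches printed here are written 5′ to 3′ on the strand of the gene and end upstream of the start site. Capitals mark GAGGAAGT or its reverse complement ACTTCCTC, and GGGCGG or its reverse complement CCGCCC. The first set of 4 are promoters with the Spi1 motif.
B9d2, chr7:25680530-25680679, plus strand: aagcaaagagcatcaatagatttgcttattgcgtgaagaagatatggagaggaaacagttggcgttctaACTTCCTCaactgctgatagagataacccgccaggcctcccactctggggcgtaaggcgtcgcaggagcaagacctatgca
Crlf3, chr11:80081092-80081241, minus strand: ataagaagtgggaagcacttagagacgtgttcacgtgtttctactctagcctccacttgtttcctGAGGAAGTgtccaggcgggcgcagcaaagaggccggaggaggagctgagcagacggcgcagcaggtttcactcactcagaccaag
Rgs19, chr2:181693911-181694060, minus strand: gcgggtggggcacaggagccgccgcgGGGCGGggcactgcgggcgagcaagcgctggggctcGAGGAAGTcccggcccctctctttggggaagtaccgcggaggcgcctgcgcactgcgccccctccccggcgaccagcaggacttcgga
Zfp809, chr9:22225562-22225711, plus strand: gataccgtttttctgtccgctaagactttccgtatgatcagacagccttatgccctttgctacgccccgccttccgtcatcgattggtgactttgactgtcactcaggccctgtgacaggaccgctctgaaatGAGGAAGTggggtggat
The next 3 are promoters with Bcl11a in all 6 lists and the GC box but no Spi1 motif in the windows of the region.
Pop7, chr5:137502530-137502679, minus strand: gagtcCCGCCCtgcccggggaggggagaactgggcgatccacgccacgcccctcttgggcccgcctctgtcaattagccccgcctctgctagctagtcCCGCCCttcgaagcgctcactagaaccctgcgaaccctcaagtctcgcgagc
Brat1, chr5:140704761-140704910, plus strand: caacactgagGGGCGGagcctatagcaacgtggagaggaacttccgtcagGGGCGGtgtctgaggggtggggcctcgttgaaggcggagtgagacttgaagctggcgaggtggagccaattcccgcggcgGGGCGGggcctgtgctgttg
Ifngr1, chr10:19591778-19591927, plus strand: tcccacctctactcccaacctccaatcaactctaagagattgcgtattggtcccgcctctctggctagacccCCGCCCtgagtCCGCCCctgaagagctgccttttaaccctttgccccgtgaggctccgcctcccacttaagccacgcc
B9d2 encodes a protein of the transition zone of primary cilia, Rgs19 a regulator of G-protein signalling, Zfp809 a zinc-finger protein that silences retroviral DNA, Pop7 a subunit of the RNase P complex and Ifngr1 a chain of the interferon-gamma receptor. The Spi1 motif at B9d2 begins 181 bases before the start site, and that at Zfp809 begins 17 bases before it. The mean Spi1 summit at these 2 genes lay 48 and 49 bp after the start site, on the other side of it from these motifs. The Rgs19 stretch carries both motifs.

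**Figure D1:**
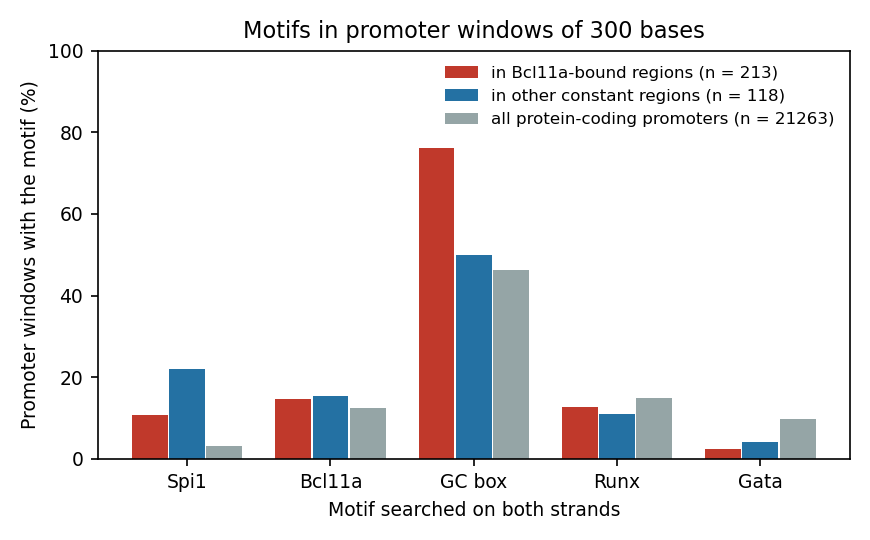
Share of 300-base promoter windows (y axis, %) that contain each motif on either strand, for windows in Bcl11a-bound constant regions (red), in other constant regions (blue) and for all protein-coding promoters (grey). The searched letters are GAGGAAGT for Spi1, TGACCA for Bcl11a, GGGCGG for the GC box, TGTGGT for Runx and AGATAA for Gata; the GC box stands at 76.1% in the red set and 50% in the blue set.

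The Bcl11a motif TGACCA was in 14.6% of the Bcl11a-bound windows, 15.3% of the other constant windows and 12.5% of all promoters, so its share differed little between the sets. The ETS core GGAA was in nearly every window of both constant sets (96.7% and 99.2%) and in 95.7% of all promoters. The Runx letters TGTGGT stood at 12.7% and 11% in the Bcl11a-bound and other windows, and the Gata letters AGATAA at 2.35% and 4.24%. For AP-1 (TGANTCA) the shares were 3.29% and 3.39%, for the 8-letter C/EBP form (TTGCNNAA) 10.8% and 9.32%, and for the 9-letter form (TTGCNNCAA) 0.939% and 3.39%. The median base composition was 62.3% G or C in Bcl11a-bound windows, 57.5% in other constant windows and 56.3% in all promoters, and the part of that composition in the GC box shares was not tested. The median window held 22 CG pairs in the Bcl11a-bound set, 18 in the other set and 13 over all promoters. These are descriptions of letters in promoter windows, and regions away from promoters were not covered.

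Bcl11a was found at the 752 regions mostly in the T1 lists. A Bcl11a peak lay at 449 (59.7%), 707 (94%) and 720 (95.7%) of the regions in T1 replicates 1, 2 and 3. In T2 the numbers were 315 (41.9%), 351 (46.7%) and 361 (48%). The T2 lists were all below the lowest T1 list. The choice of the regions used these lists, so the difference is a description, and list lengths differ too: the T1 lists held 4150, 5845 and 7270 peaks and the T2 lists 4634, 2605 and 3168.

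The number of Bcl11a lists was counted over the whole merged Bcl11a region overlapped. By this count 221 regions had 2 lists, 152 had 3, 89 had 4, 88 had 5 and 202 had all 6. A counted list need not have a peak touching the Spi1 region itself. At chr9:61680704-61681188, counted in all 6 lists, only T1 replicates 2 and 3 had a touching peak. Just outside the rule were 238 constant regions with Bcl11a in a single list, and 505 had none. On the Spi1 side, 973 merged regions had a peak in 9 of the 10 lists, and 446 of these overlapped a Bcl11a region of at least 2 lists. Of the 221 regions just inside the rule, 172 rested on T1 replicates 2 and 3 alone. Leaving out T1 replicate 2 left 557 regions, leaving out T1 replicate 3 left 553, and leaving out both left 398 (26.6% of the constant regions).

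The Bcl11a-bound regions lay at gene start sites more often than the other constant regions did. Positions were assigned by the mean Spi1 summit over the 10 lists. Of 731 Bcl11a-bound regions that could be placed, 266 (36.4%) had that summit within 1 kb of the start site of a protein-coding gene, 209 (28.6%) lay inside a gene and 256 (35%) outside genes. Of 720 other constant regions, 150 (20.8%) were at start sites, 291 (40.4%) inside genes and 279 (38.8%) outside. The remaining 21 and 23 regions are on chromosome 18, for which no start sites were used here. Start sites of some genes on other chromosomes were missing too. The region chr17:84187504-84188925, 607 bp from Zfp36l2, was classed outside genes, with its nearest start site used at Thada, 277654 bp away. Regions at such genes count as inside or outside genes, and their part in these shares and distances was not measured. The median distance to the nearest start site was 9804 bp for Bcl11a-bound regions and 17306 bp for the others. RefSeq exons and introns were not used here, so "inside a gene" covers both.

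Position changed with the number of Bcl11a lists. The share at start sites was 38.7% for 2 lists, 41.9% for 3, 47.7% for 4 and 51.2% for 5. Among the regions with Bcl11a in all 6 lists it was 18%, and 104 of those 194 placed regions (53.6%) lay outside genes. The T1 and T2 lists also differed by position. T1 replicates 1, 2 and 3 had a peak at 58.3%, 95.5% and 98.9% of the start-site regions, and at 62.5%, 94.5% and 94.5% of those outside genes. T2 replicates 1, 2 and 3 had a peak at 29.3%, 36.8% and 37.2% of the start-site regions, and at 53.1%, 59% and 58.2% of those outside genes. All 3 T2 lists covered the start-site regions less than the regions outside genes. The choice of the regions used these same lists. Of the 221 regions with 2 lists, 172 rested on T1 replicates 2 and 3 alone. The differences by position are therefore descriptions, and the part of the choice in them was not tested.

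**Figure D2:**
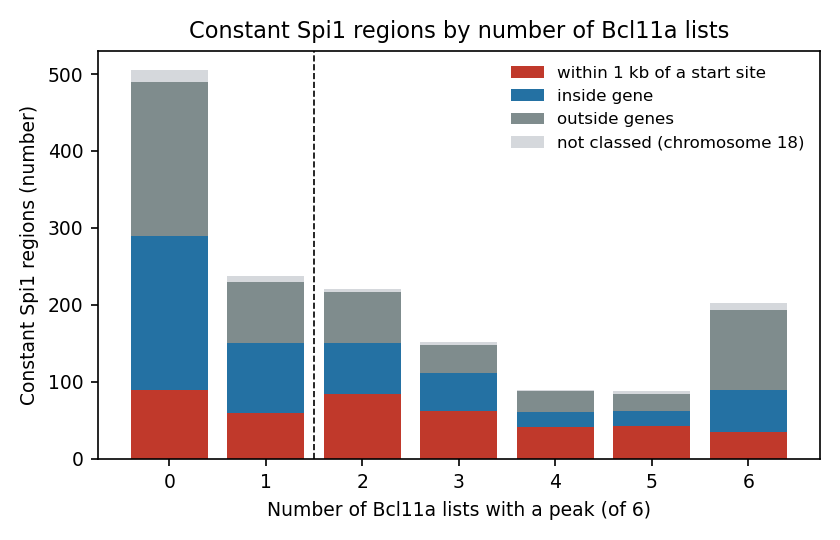
Number of constant Spi1 regions (y axis) by the number of Bcl11a lists in the merged Bcl11a region overlapped (x axis, 0 to 6), split by position. The 752 regions described here are to the right of the dashed line. Regions in 2 to 5 lists are 38.7% to 51.2% start sites, whereas 53.6% of the placed regions in all 6 lists lie outside genes.

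Summit distances used only Bcl11a peaks that touch the Spi1 region, so the overlap itself keeps them short and they are a description. The mean Bcl11a summit was a median of 72.9 bp from the mean Spi1 summit, and 59.6% of the regions had both within 100 bp. For the other constant regions with Bcl11a in 1 list, the median was 110 bp and 44.1% were within 100 bp. For the regions in all 6 Bcl11a lists, the median distance was 41.7 bp and 71.3% were within 100 bp. The Bcl11a-bound regions had a median merged width of 965 bp, against 870 bp for the other constant regions.

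A small group of regions had mean Spi1 folds above those of all other constant regions, together with Bcl11a folds of up to 38.5. The authors' deposited fold enrichment, a ratio over the peak caller's local background, averaged over the 10 Spi1 lists, had a median of 8.22 (range 2.48 to 34.1) in the Bcl11a-bound regions and 8.48 (range 4.55 to 16.5) in the others. In all, 32 Bcl11a-bound regions lay above the highest of the other constant regions, with Spi1 folds of 16.5 to 34.1 and Bcl11a folds of 6.2 to 38.5. Of these 32, 31 had Bcl11a in all 6 lists, and only 1 was at a start site, while 10 were inside genes and 18 outside (3 were not placed). They were narrower, with a median merged width of 539 bp against 975 bp for the remaining Bcl11a-bound regions. Their summits were also fixed more tightly, with a median SD of 15.2 bp across the Spi1 lists against 73.7 bp. In 1 library the folds at the top were lower: at chr12:120028659-120029044, KO-iMOS T2 replicate 2 had a Spi1 fold of 15.2, where the other 3 KO-iMOS libraries had 29.5, 29.6 and 29.5.

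**Figure D3:**
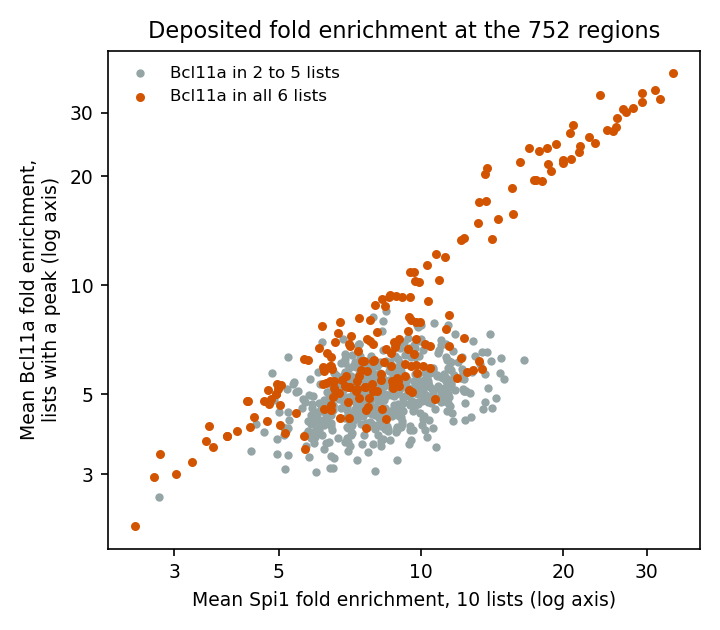
Deposited fold enrichment of Spi1 (x axis, mean of 10 lists, log axis) and of Bcl11a (y axis, mean of the lists with a peak, log axis) at each of the 752 regions, with regions in all 6 Bcl11a lists in orange. The orange points run from the lower left to the upper right, up to 34.1 for Spi1 and 38.5 for Bcl11a, while the grey points form a cloud at intermediate values.

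The top of the Spi1 ranking was held by such regions. To compare libraries, the deposited −log10 p of the strongest Spi1 peak in a region was turned into a percentile rank among the 1495 constant regions of that library (100 is the strongest). The region chr2:98666253-98667330, which lies 1035214 bp from the nearest protein-coding gene (Lrrc4c), had rank 100 in all 10 Spi1 libraries, with folds of 15.1 to 16.3 for Spi1 and 15.4 to 16.1 for Bcl11a. The region chr9:35305220-35305599, 29499 bp from Rpusd4, had ranks of 99.7 to 99.9 in WT-iMOS and 99.9 in every KO-iMOS library. Its folds were 29.1 to 34.1 for Spi1 and 31.9 to 35 for Bcl11a. Among the 10 highest mean ranks, 2 regions lay inside genes, chr12:67059166-67059939 in Mdga2 and chr19:58113254-58113706 in Atrnl1, and none was at a start site. Spi1 and Bcl11a had nearly equal folds at the chr2 and chr9 regions, in antibody libraries against different proteins; whether signal at such regions depends on either factor was not tested.

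Other Bcl11a-bound regions were crowded at the first assembled bases of chromosomes. Within 200 kb after position 3 Mb, where the assembled sequence begins on most mouse chromosomes, there were 28 Bcl11a-bound regions on 8 chromosomes and 2 other constant regions. Of the 28, 27 had Bcl11a in all 6 lists, and 11 lay on chromosome 9 between 3000012 and 3038281. Their median Spi1 fold was 4.96, below the median of all 752. The widest of the 752 regions by mean Spi1 peak, chr17:39843024-39846665, overlapped the ribosomal RNA gene Rn18s-rs5, with a mean Spi1 fold of 2.81 (range 2.48 to 3.12). Ribosomal RNA genes were touched by 2 Bcl11a-bound and 0 other constant regions, and transfer RNA genes by 1 region of each set.

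Spi1 peaks were wider at Bcl11a-bound regions than at other constant regions in all 10 libraries. A wider region meets the overlap rule more easily, so these widths are a description. No test of Bcl11a-bound against other regions is given for them. The difference in median peak width was 105, 98 and 103 bp in the WT-iMOS T1 replicates and 92.5, 79.5 and 83.5 bp in the WT-iMOS T2 replicates. It was 75.5 and 53 bp in KO-iMOS T1 and 57 and 27 bp in KO-iMOS T2. The mean was 77.4 bp over the 10 libraries.

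Ranked by −log10 p, Spi1 was stronger at Bcl11a-bound regions than at the others in WT-iMOS and about level with them in KO-iMOS. The median percentile rank of the Bcl11a-bound regions exceeded that of the others by 9.87, 8.46 and 11.8 points in WT-iMOS T1 and by 5.95, 7.46 and 7.83 points in WT-iMOS T2. In KO-iMOS the differences were -1.14 and 1.94 points in T1, and 3.31 and -0.452 points in T2. All 4 KO-iMOS values lay below all 6 WT-iMOS values. The mean was 8.56 ± 2.03 points (SD, n = 6) in WT-iMOS and 0.916 ± 2.07 points (SD, n = 4) in KO-iMOS, a difference of -7.64 points (exact permutation test, two-sided p = 0.00952, the smallest that 210 arrangements can give; adjusted p = 0.015 by Benjamini-Hochberg over 11 comparisons). This genotype difference was -3.63 points (p = 0.124, exact permutation) when regions were ranked by fold and -2.33 points (p = 0.019, exact permutation) without the 202 regions in all 6 Bcl11a lists. The Bcl11a lists that define the groups come from WT-iMOS only, so the contrast rests on regions chosen in that genotype, and the part of that choice in the difference was not tested. Over all 10 libraries the mean difference was 5.5 points (exact sign-flip p = 0.00781, adjusted p = 0.015). It was -3.45 points (p = 0.0195, exact) by fold in place of −log10 p, and 0.284 points (p = 0.648, exact) without the same 202 regions. A wider region meets the overlap rule more easily, and the part of this in the rank difference was not tested. Every library ranked the same regions, so these sign-flip p-values measure only how alike the libraries were. The width difference was also smaller in KO-iMOS, by 40.5 bp: 53.1 ± 20 bp (SD, n = 4) against 93.6 ± 10.4 bp (SD, n = 6), exact permutation p = 0.00952 and adjusted p = 0.015. Without the 202 regions the genotype difference in width was -23.7 bp (exact permutation p = 0.0857). The overlap rule favours wider regions and used Bcl11a lists of WT-iMOS only, so nothing is read from these width tests.

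By position, the genotypes differed in opposite directions. At start sites, Bcl11a-bound regions ranked above the other constant regions in every KO-iMOS library, by 11.4, 10.3, 11.8 and 11.7 points. In WT-iMOS the corresponding values were 0.702, -3.6 and 3.91 in T1 and -7.19, -10.8 and -4.9 in T2. The KO-iMOS mean of 11.3 ± 0.717 points (SD, n = 4) exceeded the WT-iMOS mean of -3.64 ± 5.31 points (SD, n = 6) by 14.9 points. Inside genes, the order was turned: WT-iMOS libraries had differences of 11.6 to 15.5 points with a median of 14.3, and KO-iMOS libraries had -0.669, 2.24, -4.75 and -4.11 points. Outside genes, WT-iMOS values ran from 13.2 to 20.5 points with a median of 19.7, and KO-iMOS values were -5.18, 6.82, 3.55 and -2.94 points. The genotype differences were -15.9 points inside genes and -17.5 points outside. In each of the 3 positions the genotypes did not overlap (exact permutation p = 0.00952 each, two-sided, adjusted p = 0.015). The split by position was chosen after seeing the data, and the groups rest on Bcl11a lists of WT-iMOS only. The p-values account for neither choice. Regions at genes whose start site was missing count as inside or outside genes here too. Both sets shifted between WT-iMOS and KO-iMOS. At start sites, mean library medians were 39.9 and 49.1 for Bcl11a-bound regions, and 43.5 and 37.8 for the others. Inside genes they were 60.2 and 51.2, beside 46.1 and 53. Outside genes they were 66.7 and 51.4, beside 48.6 and 50.9. Ranks are relative, so a fall of some regions raises others.

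The opposite signs at start sites and away from them held when regions were ranked by fold (12.1, -9.94 and -10.5 points), without the 202 regions in all 6 Bcl11a lists (15.2, -12 and -7.5 points) and with Bcl11a required in at least 3 lists (13.4, -17 and -23.6 points). Within T1 the start-site means were 0.34 points in WT-iMOS and 10.8 in KO-iMOS. Within T2 they were -7.62 and 11.8. Both labels therefore showed the same direction at start sites, and the same held inside genes (14.6 against 0.786 in T1, 13.5 against -4.43 in T2) and outside genes (18.6 against 0.819 in T1, 17.5 against 0.301 in T2). These ranks come from lists that differ by genotype in other ways: the narrowest peak was 250 to 321 bp in the KO-iMOS lists and 202 to 220 bp in the WT-iMOS Spi1 lists. The peak name prefixes also differ, PWG and PMG in WT-iMOS but PWT and PKO in KO-iMOS, and are not explained in the labels. Genotype and any separate handling of these lists cannot be told apart.

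**Figure D4:**
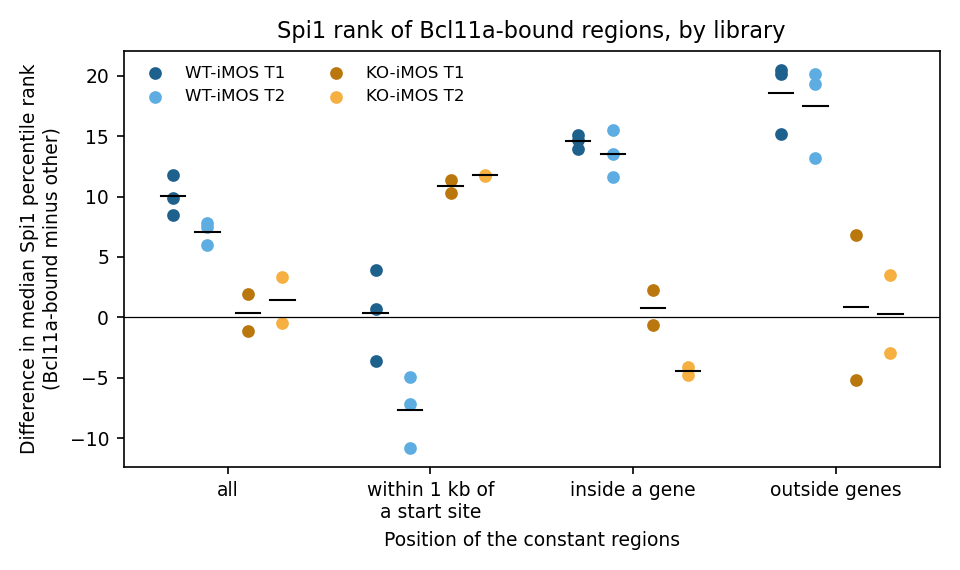
Difference in median Spi1 percentile rank between Bcl11a-bound and other constant regions (y axis, percentile points), for all regions and by position (x axis), with 1 point per Spi1 library and a bar at each group mean. KO-iMOS points (brown and yellow) lie above the WT-iMOS points (blue) at start sites, at 10.3 to 11.8, and below them inside and outside genes.

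Between T1 and T2 the mean change of the rank difference over all positions was -0.963 points, with labels permuted within genotype (exact permutation p = 0.517, adjusted p = 0.517). The genotypes had opposite signs: the WT-iMOS mean was 10 points in T1 and 7.08 in T2, without overlap between the libraries, and the KO-iMOS mean was 0.401 in T1 and 1.43 in T2. At start sites the WT-iMOS means were 0.34 and -7.62 points, also without overlap. These T1 and T2 values within a genotype were not tested.

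Region by region, the Spi1 rank of 209 of the 752 Bcl11a-bound regions differed between the genotypes, 86 higher and 123 lower in KO-iMOS. Ranks were converted to normal scores and fitted with limma over all 1495 constant regions, of which 27.8% were called at an adjusted p under 0.05 (13.6% higher and 14.1% lower in KO-iMOS). The Bcl11a-bound share was the same 27.8%, with 11.4% higher and 16.4% lower. The total was thus at the background, and the directions leaned lower. By position the split was wider. At start sites 51 regions (19.2%) were higher and 18 (6.77%) lower, where all constant regions at start sites had 16.6% and 11.1%. Inside genes 18 (8.61%) were higher and 40 (19.1%) lower, against 13.8% in each direction. Outside genes 17 (6.64%) were higher and 60 (23.4%) lower, against 10.8% and 16.8%.

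Among the 202 regions in all 6 Bcl11a lists, 12 were higher (5.94%) and 65 lower (32.2%), beside 13.6% and 14.1% of all constant regions. These regions were chosen by Bcl11a peaks in WT-iMOS. Of the 32 regions with the highest Spi1 folds, 14 were lower and 0 higher; they were chosen by folds averaged over more WT-iMOS than KO-iMOS libraries, and a rank near 100 can only fall, so nothing is read from that direction. Of the 28 regions near the first assembled bases, 17 were lower and 1 higher, beside 14.1% and 13.6% of all constant regions. The lower ones include all 4 on chromosome 4 and all 4 on chromosome 17, but 2 of the 11 on chromosome 9. The median rank of those 28 was 97.2 in WT-iMOS and 69.1 in KO-iMOS. They were singled out after their values were seen, and 27 had Bcl11a in all 6 WT-iMOS lists. A rank near 100 has little room to rise, so nothing is read from this direction either. Without overlap between the genotypes, 74 of the 752 regions (9.84%) had all KO-iMOS ranks above all WT-iMOS ranks, where 10.4% of all constant regions did, and 99 (13.2%) had all below, where 10.7% did.

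**Figure D5:**
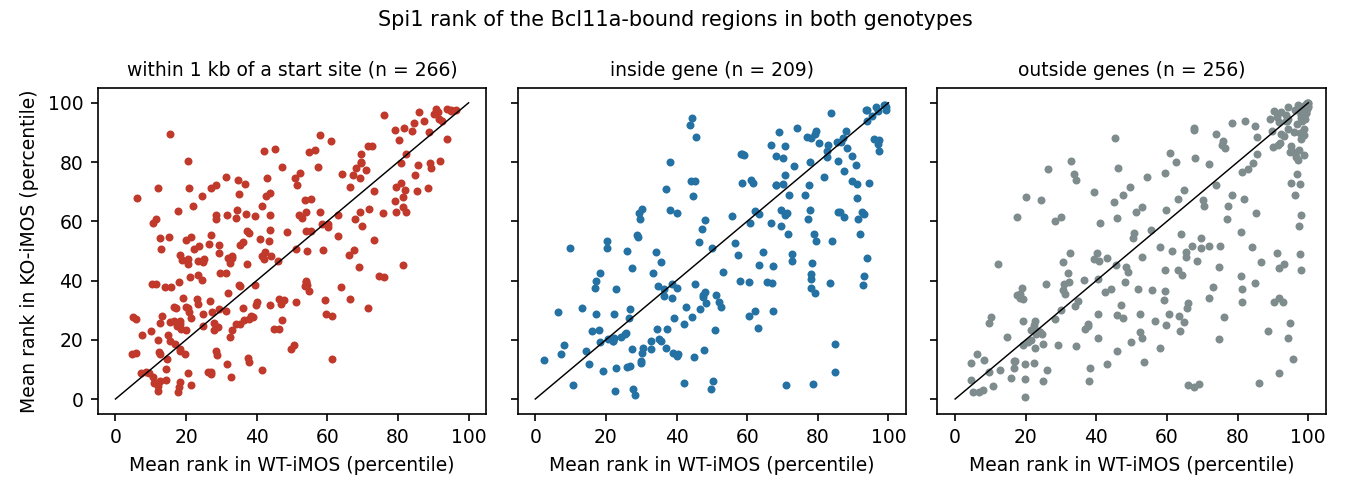
Mean Spi1 percentile rank in KO-iMOS (y axis, 4 libraries) against WT-iMOS (x axis, 6 libraries) for the Bcl11a-bound regions, in panels by position, with the line of equal rank. More start-site regions lie above the line than below it, while points far below the line are mostly inside or outside genes; the called numbers are 51 higher and 18 lower at start sites, and 17 higher and 60 lower outside genes.

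The region with the smallest p among those higher in KO-iMOS was chr11:60352764-60353431, at the start sites of Tom1l2, which encodes an adaptor of endosomal transport, and Drc3, which encodes a part of the ciliary dynein regulatory complex. Its ranks were 86.3, 87, 92.3 and 92.8 in the KO-iMOS libraries and had a lowest value of 6.09, a median of 10.7 and a highest value of 40.3 in the 6 WT-iMOS libraries. The genotypes were far apart and did not overlap, and the difference of normal scores was 2.39 (SE 0.246, limma adjusted p = 9.43e-05). At the Scamp2 start site (chr9:57560893-57562015; Scamp2 is a carrier protein of secretory membranes), KO-iMOS ranks were 59.2, 58.9, 68.1 and 57.3, against a WT-iMOS range of 4.15 to 18.6 with a median of 11.2 (limma adjusted p = 0.000332). The start-site regions of Slc25a28, a mitochondrial iron carrier (chr19:43674509-43675876), and Zfyve16, an endosomal protein (chr13:92530598-92531313), rose as well, each with an adjusted p of 0.00103. The fifth region, chr11:90538482-90539251, lies inside Stxbp4 (adjusted p = 0.000252). Thus 4 of the 5 leading regions higher in KO-iMOS were at start sites.

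The 5 leading regions lower in KO-iMOS were all outside genes and all had Bcl11a in 6 lists. At chr4:3064177-3064949 the ranks were 8.43, 26.4, 9.23 and 9.7 in KO-iMOS, and 92.8 at the lowest, 96.2 at the median and 96.5 at the highest in WT-iMOS. The difference of normal scores was -2.88 (SE 0.194, limma adjusted p = 3.02e-06). The 2 regions chr4:3050040-3050731 and chr4:3081281-3084523 are close by, and chr17:3006808-3007559 is also near the first assembled bases of its chromosome. The remaining one, chr11:107198517-107199551, lies 9047 bp from Pitpnc1, which encodes a phosphatidylinositol transfer protein, and 9464 bp from the start site of Nol11, a ribosome biogenesis factor. Its ranks were 0.134, 6.42, 9.9 and 5.82 in KO-iMOS and 79.5 to 94.2 in WT-iMOS (adjusted p = 9.43e-05). Ranked by fold, chr4:3081281-3084523 (adjusted p = 0.185) and chr17:3006808-3007559 (adjusted p = 0.2) were no longer called, while the other 8 of these 10 regions were.

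The Bcl11a-bound regions touched 853 of 21887 protein-coding genes (3.9%), counting the gene body and 10 kb on either side, and 161 of the regions touched none. The other constant regions touched 746 genes (3.41%), of which 68 were shared. In 13 gene lists used here, 33 of 343 genes (9.62%) had a Bcl11a-bound region and 35 (10.2%) had another constant region. Of the 36 Bcl11a-bound regions at list genes, 2 were higher and 8 lower in KO-iMOS, where 13.6% and 14.1% of all constant regions were.

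Interferon and inflammation genes had the highest share with a Bcl11a-bound region, 8 of 32 (25%), against 2 of 32 (6.25%) with another constant region. The 8 genes were Ifngr1, Ifnar1 and Ifnar2 (chains of the interferon receptors), Irf1 and Irf5 (transcription factors of the interferon response), Tnfrsf1b (a TNF receptor), Tnfaip3 (an inhibitor of NF-kappaB signalling) and Ptpn6 (the phosphatase SHP-1). Il1b and Irf2 had another constant region only. Of the 8 regions, 2 rose in KO-iMOS and none fell, too few to read against the 13.6% and 14.1% of all constant regions. The Ifngr1 start-site region (chr10:19591410-19592296), in all 6 Bcl11a lists, had ranks of 84.5, 86.4, 90.9 and 72.2 in KO-iMOS and of 19.5 to 76.5, with a median of 61.1, in WT-iMOS. The groups overlapped, and the difference of normal scores was 0.89 (SE 0.287, limma adjusted p = 0.0351). The region 6220 bp from the Irf1 start site (chr11:53763388-53764472) had ranks of 74.9, 72.8, 58.9 and 69.3 in KO-iMOS and of 34.6 to 55.5 in WT-iMOS (adjusted p = 0.0346). Both calls were lost under several alternatives, with adjusted p-values of 0.0613 to 0.101 for Ifngr1 without WT-iMOS T2 replicate 3 or any of KO-iMOS T1 replicates 1 and 2 and T2 replicate 1. For Irf1 they were 0.0505 to 0.0836 without WT-iMOS T1 replicate 2 or 3, WT-iMOS T2 replicate 2 or either KO-iMOS T1 replicate. The Ifnar2 region (chr16:91366658-91367623) ranked high in all libraries, 89.9 to 94 in WT-iMOS and 94.6, 91.8, 82.9 and 88.8 in KO-iMOS (adjusted p = 0.614).

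In the lists of myeloid receptors and haematopoietic signalling, fewer genes had a Bcl11a-bound than another constant region, a difference that was not tested. Of 29 myeloid receptor genes, 2 (6.9%) had a Bcl11a-bound region, Csf2ra and Fcgr3, whereas 7 (24.1%) had another constant region: Cd33, Clec12a, Csf2rb, Fcgr1, Itgam, Pirb and Selplg. Of 30 haematopoietic signalling genes, 5 (16.7%) had a Bcl11a-bound region (Vav1, Ptpn6, Lcp1, Gnai2 and Laptm5) and 10 (33.3%) another constant region. Csf2ra encodes a chain of the GM-CSF receptor. The Csf2ra region (chr19:61226951-61228621), 825 bp from the start site and in all 6 Bcl11a lists, had ranks of 15.9, 22.9, 65.8 and 19 in KO-iMOS and 64.7 to 78.8 in WT-iMOS. KO-iMOS T2 replicate 1 overlapped the WT-iMOS range, and the other 3 lay far below it (difference of normal scores -1.13, SE 0.263, limma adjusted p = 0.00784). Fcgr3, which encodes a low-affinity IgG receptor, was not called (adjusted p = 0.69), and its region (chr1:171063764-171065121) also overlaps 2 transfer RNA genes and a microRNA gene.

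Vav1, an exchange factor of small GTPases restricted to blood cells, had 2 Bcl11a-bound regions. The one inside the gene (chr17:57289931-57291230) had ranks of 91.6 to 95.7 in WT-iMOS and of 3.95, 6.09, 86.8 and 69.1 in KO-iMOS (adjusted p = 0.0123). Both KO-iMOS T1 libraries were near the bottom, and both T2 libraries were much nearer to WT-iMOS. The one at the start site (chr17:57278429-57279487) had an adjusted p of 0.103. The region inside Lcp1, an actin-bundling protein of leukocytes, was lower (adjusted p = 0.0163; 0.0502 without KO-iMOS T1 replicate 2). At Gnai2, an inhibitory G-protein subunit, the region ranked 90.2 to 96.8 in WT-iMOS and 95, 89.7, 92.5 and 97.9 in KO-iMOS (adjusted p = 0.924).

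Spi1 itself carried a Bcl11a-bound region. The region chr2:91082196-91083665 spans the lower-coordinate end of the annotated gene (91082374), was classed as inside the gene and had Bcl11a in 5 lists. No start site of Spi1 was among those used, so this class does not tell how far the region lies from it. The mean Spi1 summit was at 91083155, and the nearest start site used was that of Slc39a13, 12840 bp away. Its Spi1 ranks were 9.63, 5.28, 13.1 and 29.3 in KO-iMOS, and 18.2 at the lowest, 46.7 at the median and 72.1 at the highest in WT-iMOS. The ranges overlapped, and the region was lower in KO-iMOS (difference of normal scores -1, SE 0.311, limma adjusted p = 0.0305). Leaving out any T2 replicate of WT-iMOS, either T1 replicate of KO-iMOS or KO-iMOS T2 replicate 1 gave adjusted p-values of 0.0522 to 0.0869. Bcl11a had no Bcl11a-bound constant region at its locus. The other myeloid transcription factor with one was Egr1, an immediate early gene, whose region ranked 1.61 to 11.6 in WT-iMOS.

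Among chromatin and RNA genes, 5 of 26 (19.2%) had a Bcl11a-bound region and 3 (11.5%) another constant region. Among them were Kdm6b, a histone H3 demethylase, Dnmt3a, a DNA methyltransferase, Arid1a, a subunit of the BAF remodelling complex, and Srsf2, a splicing factor. The region counted for Arid1a has its Spi1 summit inside Pigv, 104 bp from the Pigv start site. It counts for Arid1a only through the 10 kb on either side of the gene. Kdm6b (chr11:69409305-69410941) had ranks of 69.7 to 86.8 in WT-iMOS and of 37.5, 48.2, 12 and 45.1 in KO-iMOS, with no overlap (difference of normal scores -1.25, SE 0.245, limma adjusted p = 0.00341). Srsf2 (chr11:116853050-116854000) ranked 93.5 to 96.2 in WT-iMOS and 98.2, 98, 97.4 and 97.3 in KO-iMOS, but was not called (adjusted p = 0.114).

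The remaining lists held few Bcl11a-bound regions. Stem and progenitor genes had 2 of 30 (Runx1 and Lyl1), lymphoid genes 2 of 32 (Notch1 and Syk), granule and phagocyte oxidase genes 2 of 20 (Ctsc among them), and cell cycle and survival genes 2 of 28 (Ccnd2 and Mcl1). None of these regions was called. Among the stem and progenitor genes, Etv6, Fli1, Flt3 and Meis1 had another constant region. Erythroid and megakaryocyte genes had 1 of 25, Selp, the platelet adhesion molecule, which was lower in KO-iMOS (adjusted p = 0.0245). Dendritic and mast cell genes had 1 of 21, Cd74, the invariant chain. Housekeeping genes had 2 of 24, Actb and Actg1, both lower (adjusted p = 0.00228 and 0.0258), and non-haematopoietic genes had 0 of 30. Actg1 was not called without either KO-iMOS T2 replicate (adjusted p = 0.0572 and 0.0778).

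Several genes carried more than 1 Bcl11a-bound region. Cuedc1 and Sfi1 had 3 each, and 28 genes had at least 2. Among them were Ski and Cbfa2t3, which encode transcriptional co-repressors, Zfp36l2, an RNA-binding protein that destabilises messenger RNAs, Axl, a receptor tyrosine kinase, Rasa3, a GTPase-activating protein, and Notch1, the receptor of T-lineage commitment. The Notch1 regions differed in level: the one inside the gene (chr2:26482968-26483932) ranked 94.1 to 96.7 in WT-iMOS, while the one upstream (chr2:26512993-26513890) ranked 4.82 to 44.9. The Sfi1 locus and the 9230019H11Rik locus on chromosome 10 lie close to the first assembled bases of their chromosomes.

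With WT-iMOS Spi1 ranks, the strength of both factors was related across the regions away from start sites and hardly at them; with KO-iMOS ranks, the relation was weak at start sites and inside genes alike. Spearman's rank correlation between the mean Spi1 rank in WT-iMOS and the mean Bcl11a rank was 0.347 over the 752 regions, 0.0264 over the 266 at start sites, 0.395 over the 209 inside genes and 0.573 over the 256 outside genes. With the Spi1 rank of KO-iMOS, the values were 0.175, 0.142, 0.0867 and 0.31. Regions of 1 library share its depth and background, and the Bcl11a and WT-iMOS Spi1 libraries come from the same genotype, so these are descriptions across regions. The Spi1 ranks of the 2 genotypes had a Spearman correlation of 0.666 over the 752 regions.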

How the data were processed

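CUT&Tag libraries for Bcl11a (n = 6) and Spi1 (n = 10) were made from sorted MPP3 cells using a purchased kit, per the labels' protocols. The submitters' processing notes name Bowtie2, SAMtools and MACS2 with mm10 as the build, but no version or setting. The authors deposited a separate peak list for every library; use of a control sample in calling is not stated in the sources read here. For each peak, the deposited columns hold a score (a whole number), the fold (a ratio of signal to local background), −log10 p-values and −log10 q-values. No counts or library depths were used, so the depth behind each peak is unknown, and no intervals were computed.

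Of 131939 deposited peaks, 130097 on assembled chromosomes were used. Spi1 peaks were merged at 1 bp overlap, each region took its strongest peak per library, and −log10 p was ranked among the 1495 constant regions, the same set in every list; Spi1 lists held 4926 to 12126 peaks in WT-iMOS and 6337 to 20177 in KO-iMOS, and the part of list length in the ranks was not tested. Genotypes were compared over libraries by exact permutation (210 arrangements), Bcl11a-bound with other regions by exact sign flips, and single regions with limma 3.58.1 in R 4.3.3 on normal scores, adjusted by Benjamini-Hochberg over 1495 regions; 11 library-level comparisons were adjusted together. Python 3.11.15 with numpy 2.4.6, scipy 1.17.1 and pandas 2.3.3 was used. The scripts were tested on simulated data. Genes and promoter windows came from RefSeq tables of GRCm38.p6; all genes of the 13 lists but 2 were found.

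Regions were named by rule: highest mean Spi1 and Bcl11a rank, smallest p for genotype in each direction, widest and narrowest peaks, and up to 5 genes per list, of which a part is given. Genes of a list beyond those are named with their list's count. The rRNA overlap, the regions near the first assembled bases and those with the highest folds were singled out after their values were seen. The members, lists and tests were chosen with earlier results of these data known. Alternatives covered the overlap rule, peak threshold, ranking measure, gene distance, fits and leaving out each library. Some genes of the lists are not reported here.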

Additional observations from a re-analysis of the deposited data

Results flagged for a closer look

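The contrast of Bcl11a-bound with other constant regions was flagged in 5 measures for a difference between KO-iMOS and WT-iMOS. Each gave the smallest p the design can give (exact permutation test of the difference itself, two-sided p = 0.00952, adjusted p = 0.015). Nothing is read from the test of peak width. The Spi1 rank difference was -7.64 points and the peak width difference -40.5 bp in KO-iMOS relative to WT-iMOS. By position, the rank difference was 14.9 points at start sites, -15.9 points inside genes and -17.5 points outside genes. The sign at start sites is opposite to the other positions. The lists also differ by genotype in their narrowest peak and name prefixes, whose part in these values was not tested. The Bcl11a lists that define the groups come from WT-iMOS only. The overlap rule also favours wider regions, so the width value is a description. The split by position was chosen after seeing the data. In the 34 groups of library summaries checked, no library lay beyond the limit for an outlier; folds of single regions were not among them.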

How the results depend on the processing

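The number of Bcl11a-bound constant regions was 752, and 263 of 649 with every list shortened to equal length, 398 without Bcl11a T1 replicates 2 and 3 (added after seeing the data), and 553 to 958 leaving out single libraries. Ranking by fold gave -3.45 points for Bcl11a-bound minus other (p = 0.0195, exact), -3.63 points for KO-iMOS minus WT-iMOS (p = 0.124, exact permutation) and 1.24 points for T2 minus T1, which was 1.26 points with Bcl11a in at least 3 lists; the causes were not tested. Without the regions in all 6 Bcl11a lists (added after seeing the data), the rank difference was 0.284 points, that between genotypes -2.33 points and the width difference between genotypes -23.7 bp. Splitting by position was also chosen after seeing the data. Leaving out single Spi1 libraries gave 4.8 to 6.24 points and 74.3 to 83 bp for Bcl11a-bound minus other. For KO-iMOS minus WT-iMOS it gave -8.44 to -6.96 points and -47.9 to -31.7 bp over all positions, 13.5 to 16.5 points at start sites, -17.2 to -14.9 inside genes and -19.6 to -15.6 outside genes, for T2 minus T1 -1.9 to -0.0223 points, and 162 to 207 called regions.

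Same-numbered WT-iMOS T1 and T2 libraries had correlations of their deviations of 0.116, -0.000724 and 0.0513. With so few libraries these values cannot tell whether the numbers pair the libraries, and the main tests left them unpaired. With the replicate block, 139 in place of 209 regions were called. Labels permuted within the replicate number left the differences at -7.64 points, -40.5 bp, 14.9, -15.9 and -17.5 points with p = 0.0556 (exact), the smallest that blocked test can give.

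Within 3 kb of a gene boundary lay 45.9% of the regions (37.8% within 1 kb). With 50 kb on either side of a gene, genes with a Bcl11a-bound region numbered 5 for myeloid receptors, 5 for granule and oxidase genes, 4 for myeloid transcription factors, 13 for interferon and inflammation, 8 for chromatin and RNA and 4 for housekeeping; all protein-coding genes then numbered 1813. For the 20 regions named with a genotype call, 28 of 280 alternative fits lost the call and none changed direction. The motif search in windows around summits was not run.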
